A study of Homo sapiens with 4 samples.

Results

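Clathrin-coated vesicles carry receptors and membrane from the cell surface into the cell. The coat is built from 3-legged complexes of a heavy chain, CLTC, and light chains, CLTA and CLTB, and adaptor proteins tie it to the membrane and to cargo. PICALM binds clathrin and phosphoinositides, BIN1 senses and bends membrane with its BAR domain, ITSN1 is a scaffold of endocytosis, and NUMB is a sorting adaptor that also acts on Notch. Many of these genes are known for exons that are used in neurons or muscle and skipped elsewhere. The splicing factors RBFOX1 and RBFOX2 bind the RNA letters UGCAUG, and as background knowledge a site in the intron after an exon often favours inclusion of that exon, while a site before it often favours skipping.

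The alternative splicing events of these 7 genes were examined in U87MG cells, an established human glioblastoma line, after transfection with a decoy oligonucleotide for RBFOX1/2. All events that carried one of the 7 gene symbols were taken, so that no measured value entered the choice of events, although the genes were picked with earlier results of these data known. The tables analysed here hold 135 such events out of 121269, namely 96 skipped exons (SE), 34 pairs of mutually exclusive exons (MXE), 4 alternative 3′ splice sites (A3SS), 1 alternative 5′ splice site (A5SS) and 0 retained introns (RI). BIN1 has 38 of them, ITSN1 31, CLTC 25, PICALM 20, CLTA 16 and CLTB 5, and NUMB has 0 in the tables analysed here.

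The decoy, RBFOXi, is a single-stranded RNA with a 2′-O-methyl group on each ribose and tandem copies of the RBFOX motif. The control oligonucleotide, SCRM, has a scrambled sequence. Both were given to U87MG cells by lipofection at 2.5 µM, and RNA-seq was run on 2 independent biological replicates of each. The label of RBFOXi replicate 1 names a Cy5-tagged oligonucleotide, and the labels of the other 3 libraries name no dye. Reads were counted per event and library as supporting inclusion of the region or skipping of it, and PSI, the proportion spliced in, runs from 0 to 1. Delta PSI is the mean of the RBFOXi libraries minus the mean of the SCRM libraries.

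Counts summed over all skipped exon events were 114415530 to 136097319 per library, with reads counted in each event they fit. The mesenchymal glioblastoma markers VIM, CD44 and TNC had 1658 to 9839 counts per 1000000 of this sum in every library. NES, on the same marker list, had 1 event with 1.56 to 3.46. GFAP and S100B had no skipped exon event, so they could not be checked. The neuronal markers RBFOX3 and STMN2 had none either, and SNAP25 had 15.4 to 33.8 on the same scale. Of the immune markers listed, CD68 had 1287 to 2389 and CSF1R 11.9 to 16.2, and PTPRC and AIF1 had no event. Of the endothelial markers, VWF had 0.0148 to 0.245, and PECAM1 and CDH5 had no event. RBFOX2, the target, had 56.0 and 61.8 with RBFOXi and 17.2 and 86.2 with SCRM, and RBFOX1 had no event. The 17.2 is from SCRM replicate 1, whose uneven counts along long genes are described below. In such bulk libraries, fewer cells with a gene's RNA and less RNA per cell cannot be told apart.

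The exons below carry the results, and are read from the GRCh37 genome, which is hg19, on the strand of the gene, 5′ to 3′. The light chain inserts are shown first because they are the classical neuronal exons of this family. The CLTA exon lies at chr9:36209264-36209317 on the plus strand and the CLTB exon at chr5:175823480-175823533 on the minus strand. Aligned end to end without gaps they share 35 of 54 bases, or 64.8%, and both lie within the coding sequence of GENCODE 44 transcripts.
CLTA 54 nt exon: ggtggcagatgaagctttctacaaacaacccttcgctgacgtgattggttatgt
CLTB 54 nt exon: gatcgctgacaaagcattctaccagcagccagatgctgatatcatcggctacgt

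The PICALM exon of 24 nt, at chr11:85689113-85689136 on the minus strand, had the largest difference in inclusion among the tested events of these genes. It is coding in 4 annotated PICALM transcripts, keeps the reading frame by its length and is not in the canonical transcript. Capitals mark GCATG, the core of the motif, which occurs once inside the exon at bases 5 to 9.
PICALM 24 nt exon: aatgGCATGcattttccacaatac

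In the intron after this exon, GCATG occurred at bases 38 to 42 and 181 to 185, and the first full TGCATG at bases 334 to 339. The 3 stretches around them, on the minus strand at chr11:85689041-85689105, chr11:85688898-85688962 and chr11:85688744-85688809, are shown with the motif in capitals.
PICALM after the 24 nt exon, copy 1: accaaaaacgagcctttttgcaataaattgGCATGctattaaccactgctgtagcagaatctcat
PICALM after the 24 nt exon, copy 2: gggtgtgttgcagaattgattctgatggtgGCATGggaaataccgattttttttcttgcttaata
PICALM after the 24 nt exon, TGCATG: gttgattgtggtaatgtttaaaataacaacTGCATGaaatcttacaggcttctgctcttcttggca

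BIN1 has 2 skipped exons with TGCATG close behind them, one of 129 nt at chr2:127815049-127815177 and one of 45 nt at chr2:127818172-127818216, both on the minus strand. The motif begins at base 55 of the intron after the 129 nt exon and at base 57 of the intron after the 45 nt exon. The first bases of these introns, chr2:127814975-127815048 and chr2:127818096-127818171, are shown from the splice site on, with TGCATG in capitals.
BIN1 after the 129 nt exon: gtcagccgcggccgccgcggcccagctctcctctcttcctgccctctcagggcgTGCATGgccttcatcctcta
BIN1 after the 45 nt exon: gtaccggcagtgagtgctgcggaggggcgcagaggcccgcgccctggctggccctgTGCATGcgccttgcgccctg

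Among all tested skipped exons of the 6 genes, these BIN1 exons were the 2 of 37 (5.41%) with TGCATG in the first 300 nt of the intron after the exon, against 8.36% of the 30634 distinct skipped exons tested in the series. In the last 300 nt before the exon the motif was found for 5 of 37 (13.5%), against 8.16%. The shorter GCATG, which every TGCATG contains, followed 6 of 37 and preceded 11 of 37, against 24.1% and 23.7% of all exons. Motifs were counted on the RNA strand only. A match describes the letters and is not a shown binding site, and the RBFOX family also has other motifs that were not searched.

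Of the 135 events, 84 passed the filter on counts and were tested, at 68 distinct regions in 6 genes. Of the 51 events left out, 39 had enough counts but under 4 of the skipping form over the 4 libraries, 2 had under 4 of the inclusion form, and 10 had too few counts in all. No event of these genes was called changed by limma, 0 of 84, where a call needed a Benjamini-Hochberg adjusted p-value under 0.05 together with a delta PSI of 0.1 or more in size. The background was low too, with 27 calls among 72115 tested events (0.0374%), all of them skipped exons (0.0682% of 39615). An unadjusted limma p-value under 0.05 was found for 10 of 84, in PICALM (3), BIN1 (6) and CLTC (1), against 2.81% of all tested events, and RBFOXi was lower in 8 of the 10 and higher in 2. The quasi-binomial F test called 0 of 84 (0.0555% of all tested events). Fisher's exact test on pooled counts, which ignores the spread between replicates, called 6 of 84 (0.824%), 4 in BIN1 and 2 in PICALM. Events of a gene share reads, and the 10 lie at fewer independent exons than 10.

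The tested events mostly differed by a few hundredths of PSI or less. Delta PSI was under 0.01 in size for 50 of the 84 and under 0.05 for 72, and its median size was 0.00824 against 0.0125 over all tested events. A size of 0.1 or more was seen in 7 of 84, against 4.6% of all tested events. The 2 groups did not overlap in 25 of 84 events, 13 lower and 12 higher with RBFOXi, against 28.4% of all tested events. The largest sizes by gene were 0.0195 in CLTA, 0.0252 in CLTB, 0.0471 in CLTC, 0.126 in ITSN1, 0.183 in BIN1 and 0.307 in PICALM.

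**Figure D1:**
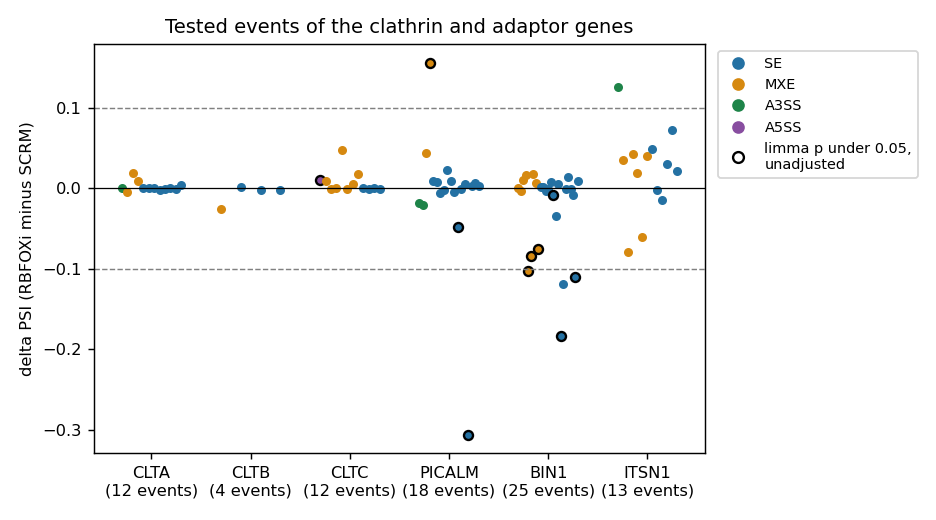
Delta PSI (RBFOXi minus SCRM, y axis) of the 84 tested events, 1 point each, by gene and coloured by event type, with black rings for the 10 events with an unadjusted limma p-value under 0.05 and dashed lines at 0.1 and -0.1. The clathrin chains stay close to 0, while the PICALM 24 nt exon (-0.307) and the BIN1 129 nt exon (-0.183) lie lowest.

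The coat genes come first. CLTA, the light chain a gene, was spliced without its neuronal inserts in all 4 libraries. The 54 nt insert had PSI 0.000398 and 0 with RBFOXi and 0.000321 and 0.000365 with SCRM, on 4594 to 8555 counts. The 36 nt insert at chr9:36210622-36210657 had PSI 0.00129 and 0.00168 with RBFOXi and 0.0019 and 0.00118 with SCRM. The groups overlapped for both exons (limma, adjusted p = 1 for each). The 3 exons before them, of 38, 118 and 112 nt, were included at 0.997 to 1 in every library in the deepest event of each. Shallower events of the 38 and 118 nt exons, with other neighbours, went down to 0.951 and 0.981.

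CLTB, the light chain b gene, had PSI 0.00264 and 0.00316 with RBFOXi and 0.00469 and 0.0054 with SCRM for its 54 nt insert. Both RBFOXi values were lower, with a delta PSI of -0.00215 (limma, unadjusted p = 0.351). A CLTB exon of 552 nt, included at 0.0171 and 0.015 with RBFOXi and at 0.0237 and 0.012 with SCRM, overlapped between the groups. The neuronal form of both light chains was a trace form in this line under either oligonucleotide.

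CLTC, the heavy chain gene, had its skipped exons near full inclusion. The exon of 174 nt, whose control PSI was nearest to 0.5 among them, stood at 0.993 and 0.998 with RBFOXi and at 1 and 0.991 with SCRM. An alternative 5′ splice site that adds 12 nt to an exon, at chr17:57721845-57721856, had PSI 0.0144 and 0.0101 with RBFOXi and 0 and 0.0045 with SCRM. Both RBFOXi values were higher, on 1314 and 1315 counts, against 80 and 2521 counts with SCRM (limma, unadjusted p = 0.0474, adjusted p = 0.995). Without SCRM replicate 1 the unadjusted limma p was 0.051. The short exon near the 3′ end of CLTC that muscle uses had no event here.

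SCRM replicate 1 differed from the other libraries in how its counts ran along long genes. At the 5′ exons of CLTC it had 0.0334 of the inclusion counts of SCRM replicate 2, and at the exon nearest the 3′ end 0.758. In PICALM the ratio ran from 0.12 at the first counted exon to 0.404 at the last, and in ITSN1 from 0.0826 to 0.392. In BIN1 it ran from 1.08 to 2.34 and in CLTA from 1.22 to 1.65. The same ratio between the RBFOXi replicates stayed between 0.587 and 1.18 in all 6 genes. The part of this gradient in the differences of inclusion was not tested. Some results of CLTC, PICALM, BIN1 and ITSN1 are given without this library as well, and those of the wider pathway are not.

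**Figure D2:**
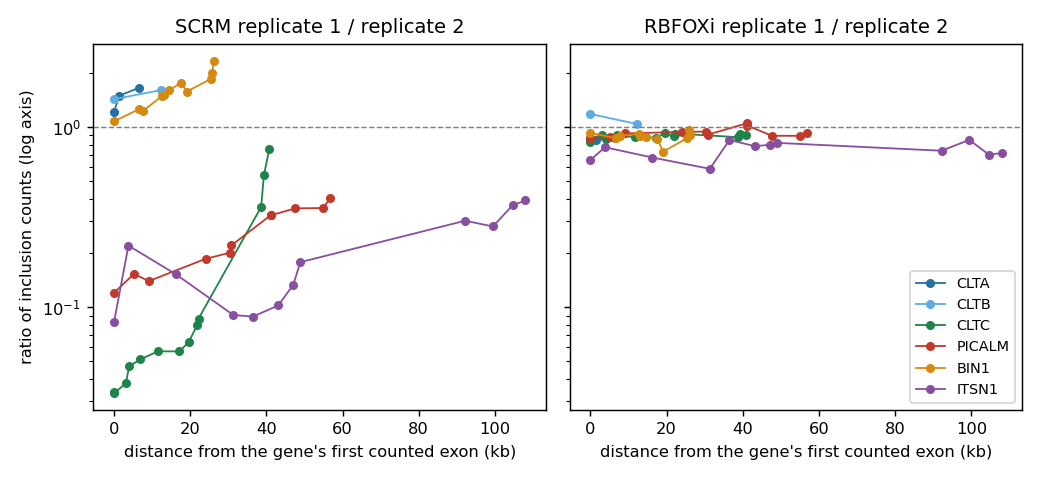
Ratio of inclusion counts between the replicates of a group (y axis, log scale) at the skipped exons of each gene with a mean of at least 100 inclusion counts, by distance from the first such exon (x axis, kb), with SCRM on the left and RBFOXi on the right. The SCRM ratio is higher at the 3′ end in CLTC (0.758 against 0.0334) and PICALM (0.404 against 0.12), and the RBFOXi ratio stays between 0.587 and 1.18.

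PICALM, which helps to set the size of clathrin-coated vesicles and sorts SNARE proteins into them, held the largest difference. Its 24 nt exon had 64 inclusion and 160 skipping counts in RBFOXi replicate 1 and 50 and 220 in replicate 2, against 34 and 37 in SCRM replicate 1 and 109 and 64 in replicate 2. After division by effective length, PSI was 0.555 and 0.415 with RBFOXi and 0.741 and 0.842 with SCRM. Both RBFOXi libraries were lower than both SCRM libraries. As plain shares of counts, not divided by length, the delta PSI was -0.319.

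The means were 0.485 ± 0.0992 and 0.791 ± 0.0709 in that order (SD, n = 2 each). The log2 odds of inclusion differed by -2.04 (SE 0.484; limma, unadjusted p = 0.000942, adjusted p = 0.462), so the exon was not called over all tested skipped exons. Without SCRM replicate 1 delta PSI was -0.357 in place of -0.307, with an unadjusted limma p of 0.00111. Fisher's exact test on pooled counts gave an adjusted p of 2.31e-18.

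The next 2 exons of PICALM are a 60 nt exon at chr11:85687666-85687725 and a 105 nt exon at chr11:85685751-85685855, both coding and in the canonical transcript. Taken as mutually exclusive, the share of the 60 nt exon was 0.271 and 0.3 with RBFOXi and 0.144 and 0.114 with SCRM. Both RBFOXi values were higher, by 0.156 in the mean (log2 odds 1.43, SE 0.253; limma, unadjusted p = 0.000299, adjusted p = 0.335). Without SCRM replicate 1 the delta PSI was 0.171 with an adjusted limma p of 0.0266, and without SCRM replicate 2 it was 0.141 with 0.00632, so this event was called in either case. Leaving out RBFOXi replicate 1 or replicate 2 gave no call (limma, adjusted p = 0.395 and 1, Benjamini-Hochberg). Without SCRM replicate 2, limma called 1400 of the 26176 tested mutually exclusive events of the series.

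The mutually exclusive event counts the same reads as a pair of skipped exon events of these exons, with the same flanking exons. Its form with the 60 nt exon uses the junction that skips the 24 nt exon. The counts of that form were 162 and 222 with RBFOXi and 37 and 64 with SCRM. The skipping counts of the 24 nt exon were 160 and 220 with RBFOXi and 37 and 64 with SCRM. The event is therefore not an observation separate from the 24 nt exon. In the deeper events of the same exons, inclusion was high in every library. The 60 nt exon had PSI 0.966 and 0.878 with RBFOXi and 0.923 and 0.905 with SCRM, and the 105 nt exon 0.995 and 0.996 against 1 and 1. The shallower event of the 105 nt exon, chosen after its values were seen, had PSI 0.929 and 0.919 with RBFOXi and 0.989 and 0.955 with SCRM (limma, unadjusted p = 0.0165, adjusted p = 1). The shallower event of the 60 nt exon overlapped between the groups, with 0.83 and 0.83 against 0.938 and 0.732 (limma, unadjusted p = 0.717). Both share their inclusion counts with the mutually exclusive event, so they are not separate observations.

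Other alternative regions of PICALM did not separate the groups. The 150 nt exon at chr11:85701293-85701442, the nearest of its exons to a PSI of 0.5 in the controls, had 0.421 and 0.373 with RBFOXi and 0.397 and 0.387 with SCRM. An alternative 3′ splice site of 15 nt stood at 0.62 and 0.668 with RBFOXi and at 0.704 and 0.624 with SCRM. A second of 21 nt, at the start of the 150 nt exon, had 0.926 and 0.961 against 0.981 and 0.943. The values of the 2 groups overlapped for all 3.

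BIN1, also called amphiphysin 2, has a run of exons for binding clathrin and AP2 that brain isoforms use, and a phosphoinositide-binding exon that muscle uses. The first exon of the clathrin-binding run is that of 129 nt, coding in 4 transcripts of the annotation and exon 12 of the canonical one. It had PSI 0.327 and 0.446 with RBFOXi and 0.52 and 0.621 with SCRM, on 868 to 1705 counts per library. Both RBFOXi libraries were lower, with means of 0.387 ± 0.084 and 0.57 ± 0.0713 (SD, n = 2 each).

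The log2 odds of the 129 nt exon differed by -1.09 (SE 0.323; limma, unadjusted p = 0.00495, adjusted p = 1). With 1 library left out delta PSI ran from -0.243 to -0.124, against -0.183 with all 4. The unadjusted limma p was 0.0753 without RBFOXi replicate 1, 0.0794 without SCRM replicate 2 and 0.00829 without SCRM replicate 1. Fisher's exact test on pooled counts gave an adjusted p of 4.8e-23. A second event of the same exon had the 90 nt exon as its neighbour and was chosen after its values were seen. It had PSI 0.486 and 0.551 with RBFOXi and 0.554 and 0.721 with SCRM (limma, unadjusted p = 0.0565). Its delta PSI was -0.119. The 2 events were almost equally deep, with a mean of 1130.25 counts per library in the first and 1129.75 in the second. Shallower tested events of this exon, with neighbours further on, differed less. In 1 of them PSI was 0.936 and 0.943 with RBFOXi and 0.916 and 0.952 with SCRM, so the groups overlapped (delta PSI 0.00539; limma, unadjusted p = 0.919). In another PSI was 0.92 and 0.977 with RBFOXi and 0.986 and 0.979 with SCRM (delta PSI -0.0338; limma, unadjusted p = 0.123).

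The 90 nt exon at chr2:127808730-127808819 is exon 16 of the canonical transcript. It stood at 0.433 and 0.515 with RBFOXi and at 0.554 and 0.615 with SCRM. Both RBFOXi values were lower, with a delta PSI of -0.111 (limma, unadjusted p = 0.0437, adjusted p = 1). Its skipping counts, 406, 336, 483 and 203 in the order RBFOXi 1 and 2 and SCRM 1 and 2, are the same reads as those of the 129 nt exon, which skip both. Delta PSI was -0.0700 without RBFOXi replicate 1 and -0.141 without SCRM replicate 1. In a second event of this exon, with the 129 nt exon as its neighbour and chosen after its values were seen, PSI was 0.747 and 0.714 with RBFOXi and 0.687 and 0.755 with SCRM. There the groups overlapped (delta PSI 0.00979; limma, unadjusted p = 0.852). TGCATG was not found in the 300 nt on either side of the exon.

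The other tested exons of the clathrin-binding run, 2 of 108 nt each, were near absent. That at chr2:127809831-127809938 had PSI 0.00201 to 0.00894 and that at chr2:127811481-127811588 had 0.00105 to 0.0119 over the 4 libraries. The first exon of the clathrin-binding run was used in this line at intermediate levels with either oligonucleotide, and these later exons were not.

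In 5 tested mutually exclusive events the 129 nt exon was set against an exon further on. Against the 108 nt exons, which were near absent, its share was 0.993 to 0.999 in every library, with delta PSI of -5.03e-05 (groups overlapping) and -0.00306. Against the other 3 exons both RBFOXi libraries were lower. Against the 111 nt exon its share was 0.214 and 0.262 with RBFOXi and 0.31 and 0.372 with SCRM (limma, unadjusted p = 0.00697, adjusted p = 1). Against the 102 nt exon delta PSI was -0.0838, and against the 90 nt exon -0.0751 (limma, unadjusted p = 0.0389 and 0.0427). Without SCRM replicate 1 delta PSI was -0.134 against the 111 nt exon, -0.134 against the 102 nt exon and -0.0954 against the 90 nt exon. Without SCRM replicate 2 it was -0.0715, -0.0339 and -0.0548 in that order. The 111 and 102 nt exons were nearly constant by themselves, at 0.961 to 0.982 and 0.972 to 0.994. These 3 events share their inclusion counts with skipped exon events of the 129 nt exon, so they are not separate observations. The ratio of inclusion counts of SCRM replicate 1 to SCRM replicate 2 was 1.57 at the 129 nt exon, 2 at the 111 nt exon and 2.34 at the 102 nt exon. The part of this in the shares was not tested.

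The 45 nt exon of the phosphoinositide-binding part, coding in 3 annotated transcripts, was rare. Its PSI was 0.00436 and 0.00286 with RBFOXi and 0.0155 and 0.0092 with SCRM, from 4, 3, 23 and 8 inclusion counts. Both RBFOXi libraries were lower (log2 odds -1.64, SE 0.683; limma, unadjusted p = 0.0319, adjusted p = 1). Without SCRM replicate 1 the unadjusted limma p was 0.25. The exon of 93 nt at chr2:127825739-127825831, in the BAR domain part of brain isoforms, had PSI 0.00397 and 0.00541 with RBFOXi and 0.00269 and 0.00385 with SCRM, both RBFOXi values being higher (limma, unadjusted p = 0.458).

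The 2 BIN1 exons with TGCATG close behind them were both lower with RBFOXi in their deepest events, at very different levels of use, 0.57 and 0.0124 in the control mean. The 90 nt exon, also lower in its deeper event, has no TGCATG within 300 nt, and the 93 nt exon and the 108 nt exons have none in the first 300 nt after them. With 2 such exons no test across exons was possible.

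**Figure D3:**
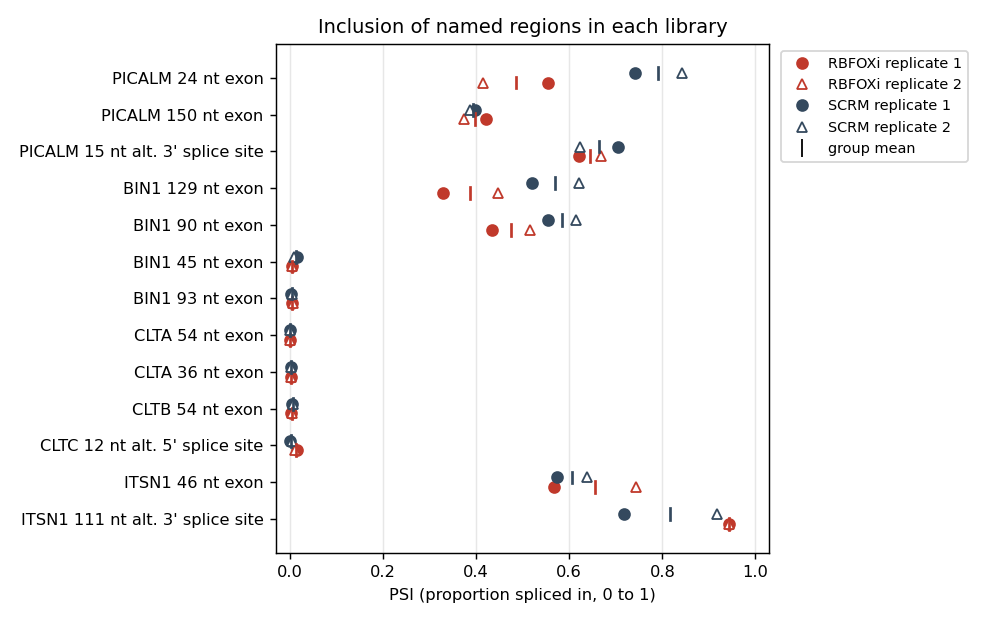
PSI (x axis, 0 to 1) of 13 regions in each of the 4 libraries, with filled circles for replicate 1, open triangles for replicate 2 and bars for group means (n = 2). RBFOXi (red) lies left of SCRM (dark) for the PICALM 24 nt exon and the BIN1 129 and 90 nt exons, while the neuronal inserts of CLTA and CLTB lie at 0.

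ITSN1, a scaffold with EH and SH3 domains that joins coat assembly to dynamin and actin, had 13 tested events and none with an unadjusted limma p under 0.05. The 46 nt exon at chr21:35199122-35199167 had PSI 0.567 and 0.744 with RBFOXi and 0.574 and 0.639 with SCRM. Groups overlapped on 64 to 124 counts. An alternative 3′ splice site of 111 nt had 0.944 in both RBFOXi libraries and 0.717 and 0.918 with SCRM, a delta PSI of 0.126 (limma, unadjusted p = 0.145). The low value comes from 15 counts in SCRM replicate 1, and without that library delta PSI was 0.0258. The neuronal microexon of ITSN1 had no event in the tables analysed here.

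**Figure D4:**
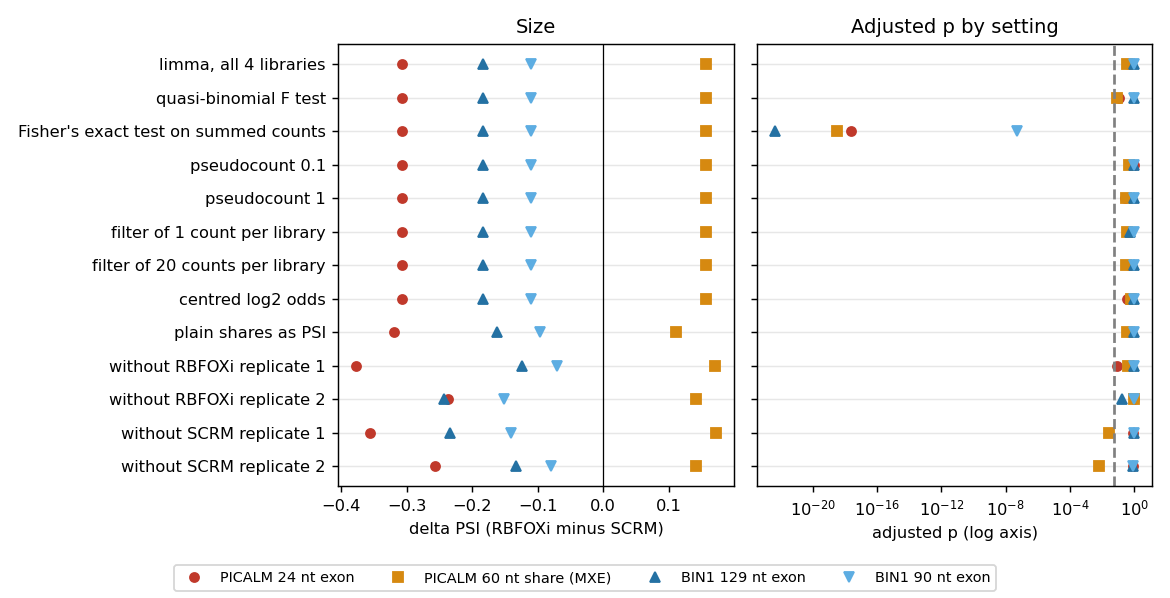
Delta PSI (left, x axis) and adjusted p-value (right, log x axis, dashed line at 0.05) of 4 events under the settings without a replicate block (y axis), in PICALM (24 nt exon, and share of the 60 nt exon against the 105 nt exon) and BIN1. The groups of these 4 events do not overlap, so no setting shown could turn the sign of delta PSI. The adjusted p of the PICALM 24 nt exon lies under 0.05 with Fisher's exact test (2.31e-18) and with no other setting shown.

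The wider pathway was described with a list of 59 other genes of the clathrin coat, AP2 and other adaptors, dynamins, uncoating and BAR domain proteins. Of these 48 had events and 44 had tested events, 367 in all. None was called by limma or the quasi-binomial F test (0 of 367). Fisher's exact test on pooled counts called 5 of 367, against 0.824% of all tested events. An unadjusted limma p under 0.05 was found for 10 of 367, 4 lower and 6 higher with RBFOXi, against 2.81% of all tested events. The median size of delta PSI over the 367 was 0.0103.

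DNM2, the ubiquitous dynamin that cuts coated pits from the membrane, had the lowest p of the list. Its mutually exclusive exons of 139 nt, on chromosome 19, gave a share of the first exon of 0.569 and 0.573 with RBFOXi and 0.714 and 0.757 with SCRM. Both RBFOXi libraries were lower, with a delta PSI of -0.164 (log2 odds -1.06, SE 0.175; limma, unadjusted p = 0.000174, adjusted p = 0.304). A DNM2 exon of 12 nt stood at 0.632 and 0.771 with RBFOXi and at 0.381 and 0.52 with SCRM, a delta PSI of 0.251 (limma, unadjusted p = 0.00451, adjusted p = 1).

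REPS1, an EH domain protein of endocytosis, had its 81 nt exon at 0.766 and 0.796 with RBFOXi and at 0.597 and 0.57 with SCRM (limma, unadjusted p = 0.0046, adjusted p = 1). EPS15, an EH domain adaptor of AP2, had its 90 nt exon at 1 and 1 with RBFOXi and at 0.902 and 0.981 with SCRM (limma, unadjusted p = 0.00903, adjusted p = 1). The EPS15 event had 48 to 513 counts per library, and its lower SCRM value, 0.902, is that of replicate 1. The groups did not overlap for either exon.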

How the data were processed

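RNA-seq of U87MG cells covered 2 RBFOXi and 2 SCRM libraries, grouped by their labels. The authors mapped reads to hg19 by STAR 2.4.2a and ran rMATS. For every event they deposited read counts of both forms (inclusion and skipping), not normalized, with 2 libraries in each cell, and effective lengths. The deposited p-value, FDR and inclusion level difference columns hold the authors' own comparison and were not used. Per library, PSI was the inclusion count divided by its length over the sum of both forms so divided. Events with at least 5 counts in each library, a mean of 20 and 4 counts of each form entered a limma fit (version 3.58.1, R 4.3.3) on the log2 odds of inclusion (pseudocount 0.5, variance trend on information), on condition alone, with Benjamini-Hochberg adjustment over all tested events of a type. PSI for mutually exclusive exons is the share of the exon that comes first in the transcript. Reads are counted in several events and are not independent molecules, so tests rest on the spread between replicates. The fit was tested on simulated data.

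Events at a region were represented by the deepest one. Named events had an unadjusted p under 0.05 or a delta PSI of 0.1 or more in size, were nearest to a PSI of 0.5 in the controls of their gene, or are known regulated exons. Pathway genes were named at an unadjusted p under 0.01. Members and lists were chosen with earlier results of these data known. Alternatives covered the test, pseudocount, filter, block, centring, PSI definition, delta PSI minimum, each library left out, 1 event per region and the motif window. Introns were read from GRCh37, and exons were matched to GENCODE 44 by their exact ends. Python 3.11.15, numpy 2.4.6, pandas 2.3.3 and matplotlib 3.10.9 were used.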

Additional observations from a re-analysis of the deposited data

How the results depend on the processing

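Each group has 2 libraries, and a p that misses the threshold does not show that inclusion was equal. Low inclusion rests on few counts, and PICALM and ITSN1 are thinly covered at their 5′ ends in SCRM replicate 1. The planned edgeR alternative was not run.

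Alternatives were run for 10 events of the 7 genes, those with p under 0.05 or delta PSI of 0.1 or more at their deepest event, and not for the pathway genes one by one. The groups did not overlap in any of the 10, so leaving out 1 library could not turn the sign of delta PSI. For the PICALM 24 nt exon delta PSI was -0.377 to -0.236 with 1 library left out. Fisher's exact test and the replicate block both called this exon, at the same -0.307, since delta PSI does not depend on the test. The count of events called in the 7 genes was 0 in limma, 6 with Fisher's exact test (5 lower, 1 higher), 3 with the replicate block (2 lower, 1 higher), and 0 to 1 with 1 library left out. The block called the PICALM 24 nt exon, the PICALM mutually exclusive event, which is not separate from it, and the BIN1 129 nt exon. Titles of same-numbered libraries share an ending (D_R for replicate 1, P for replicate 2), and neither the labels nor the study's methods say what it stands for. Deviations of same-numbered libraries correlated at 0.0836 to 0.118 over the 5 event types. With 2 pairs this cannot decide whether the numbers pair the samples, and the limma fit was left on condition alone. With the block the adjusted limma p was 0.00362 for the PICALM 24 nt exon and 0.00265 for the BIN1 129 nt exon. An unadjusted p under 0.05 was found for 21 of the 84 events with Fisher's exact test, against 10 with limma. The share of all tested events with such a p in Fisher's exact test was not counted, so the 21 is not a result about these genes.

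Over all tested skipped exons, calls numbered 27 in limma, 317 with Fisher's exact test, 1 with pseudocount 0.1, 44 with a filter of 1 count per library, 119 with the replicate block and 1 to 69 with 1 library left out. Over mutually exclusive exons they numbered 0 in limma, 4 with the quasi-binomial F test, 199 with Fisher's exact test, 2 with pseudocount 1, 77 with the replicate block, 5 with centred log2 odds and 4 to 1400 with 1 library left out, the highest without SCRM replicate 2. TGCATG followed 19 of the 37 exons and preceded 26 when whole introns were searched, against 49.9% and 51.2% of all tested exons (51.4% and 70.3% in these genes). The replicate block called 2 of the 367 tested events of the wider pathway, against 119 skipped exons and 77 mutually exclusive events over the series. Centred log2 odds called 1 of the 367, against 26 skipped exons and 5 mutually exclusive events over the series. The wider pathway also had calls in some fits with 1 library left out. A group then keeps 1 library, and the counts of these calls are not given.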
